A study of Mus musculus with 12 samples.

Results

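The genes described here are 30 members of the DNA damage response of mice. They act in nucleotide excision repair, interstrand crosslink repair, homologous recombination, translesion synthesis, damage signalling, single strand break repair and nucleotide supply. They were chosen by gene symbol, with earlier results of these data known. Each of the 30 symbols matched a row among the 35275 genes of the deposited count table. All 30 passed the filter on low counts, which left 18344 genes for testing. RNA selected for poly(A) came from the optic nerve of mice carrying the label NF1, a model of neurofibromatosis type 1, a tumour predisposition syndrome in which gliomas of the optic pathway arise. The groups held 6 libraries of PBS-treated mice, 3 of mice given Carboplatin and 3 of mice given Selumetinib. The Nf1 allele, any Cre driver, dose, schedule, age and sex are not given in the sources used here. All 12 libraries carry the NF1 label, so no group without it was compared. The 2 drugs were each compared with the same 6 PBS libraries and with each other, so the 2 comparisons with PBS are not independent. The samples are listed with the first 3 PBS libraries before carboplatin and the last 3 before selumetinib. Whether the controls form 2 sets, each handled with its drug, is not given in the sources used here. If they do, a difference between the sets cannot be separated from a difference between the drugs.

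Carboplatin is a platinum drug that binds guanines in DNA and links neighbouring bases within a strand or bases of opposite strands. Links within a strand are cut out by nucleotide excision repair: XPC or DDB2 finds the distortion, XPA and the RPA complex check and hold the open site, the ERCC2 and ERCC3 helicases unwind it, and the nucleases ERCC5 and ERCC1-ERCC4 cut on either side. Links between strands block replication forks and are handled by the Fanconi anaemia proteins, with recombination and translesion polymerases finishing the repair. Selumetinib inhibits the kinases MEK1 and MEK2, which carry the signal of RAS to ERK. Most cells of the adult optic nerve are glia, chiefly oligodendrocytes and astrocytes, and few of them divide.

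Promoters are shown for Xpa, Rpa1, Ercc5 and Fanca, which stood above selumetinib after carboplatin, and for Brca2, which stood on the other side. Rpa2 also stood above selumetinib, and its window, with 3 CCAAT boxes, is not printed. They are the 250 bases before the transcription start, from RefSeq on GRCm38.p6, printed from 5′ to 3′ on the strand of the gene. Of the 30 members 24 had an entry, and Xpc, Ddb2, Ercc3, Fancd2, Rev3l and Rrm2b had none. Capitals mark the CCAAT box, the GC box (GGGCGG) and the E2F-type motif TTTCCCGC or TTTGGCGC, each on either strand. The windows are chr4:46196312-46196561 on the minus strand for Xpa, chr11:75348384-75348633 on the minus strand for Rpa1, chr1:44147494-44147743 on the plus strand for Ercc5, chr8:123318577-123318826 on the minus strand for Fanca and chr5:150522371-150522620 on the plus strand for Brca2.
Xpa: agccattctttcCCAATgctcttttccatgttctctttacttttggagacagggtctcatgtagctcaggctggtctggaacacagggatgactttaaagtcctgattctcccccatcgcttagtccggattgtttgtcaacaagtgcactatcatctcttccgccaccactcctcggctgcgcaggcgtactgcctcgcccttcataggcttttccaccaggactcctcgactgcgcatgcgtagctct
Rpa1: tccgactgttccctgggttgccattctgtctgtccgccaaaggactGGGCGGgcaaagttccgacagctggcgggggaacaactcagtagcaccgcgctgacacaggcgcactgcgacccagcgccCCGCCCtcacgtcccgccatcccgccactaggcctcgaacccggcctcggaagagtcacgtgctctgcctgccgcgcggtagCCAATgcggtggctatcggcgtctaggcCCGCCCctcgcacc
Ercc5: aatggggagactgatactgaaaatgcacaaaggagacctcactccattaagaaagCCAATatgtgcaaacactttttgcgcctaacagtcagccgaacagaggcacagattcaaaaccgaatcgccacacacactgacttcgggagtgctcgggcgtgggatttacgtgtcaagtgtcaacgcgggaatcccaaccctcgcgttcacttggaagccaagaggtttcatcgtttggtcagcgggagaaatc
Fanca: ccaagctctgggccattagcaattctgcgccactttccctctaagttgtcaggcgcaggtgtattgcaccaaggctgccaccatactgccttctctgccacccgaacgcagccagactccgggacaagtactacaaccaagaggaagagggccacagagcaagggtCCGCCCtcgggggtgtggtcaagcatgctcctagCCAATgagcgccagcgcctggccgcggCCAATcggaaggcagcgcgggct
Brca2: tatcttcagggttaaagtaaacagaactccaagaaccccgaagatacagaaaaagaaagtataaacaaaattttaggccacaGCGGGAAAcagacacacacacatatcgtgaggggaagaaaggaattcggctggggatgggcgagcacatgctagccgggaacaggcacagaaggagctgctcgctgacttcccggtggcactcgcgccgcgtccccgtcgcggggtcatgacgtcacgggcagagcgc

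A CCAAT box, searched as CCAAT on both strands, lay in 12 of the 24 member windows, against 33.8% of 32851 promoters of the same length. Xpa, Rpa1, Ercc5 and Fanca each held it, and so did Rpa2, Fancc and Brca1. The GC box GGGCGG was found in 11 of 24 windows, against 32.7% of promoters. The E2F-type motif TTTCCCGC was in 3 (Brca2, Chek2 and Fancg), against 0.895% of promoters, and its partner TTTGGCGC in 0, against 0.417%. Fancc, Brca1, Rad51c and Chek1, also below selumetinib after carboplatin, held neither, and Chek2 and Fancg overlapped between the drugs. CACGTG was found in 2 windows, against 6.02%, and TTTGAA, a cell cycle element, in 1, against 16.0%. All motifs were searched on both strands, and a GC box can share letters with the E2F-type motif. A match describes the letters only.

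Total counts per library ran from 21793052 to 33375754, and a member received between 12 and 4103 counts in a library. Values below are CPM after TMM scaling, which puts the libraries on a shared scale. The labels name the optic nerve but also call the material nerve cells. All 10 markers of mature oligodendrocytes were present in every library, with 2.83% of scaled counts in PBS 1, 2.75% and 1.90% in selumetinib 1 and 2, and 5.06% to 9.50% in the other libraries. The 9 skeletal muscle markers took 8.005% of PBS 1 and at most 0.226% elsewhere, where 7 to 9 of them had counts and Myh4 and Ckm were at 0 in some PBS and selumetinib libraries. The 8 neuronal markers all had counts in every library and took 0.156% and 0.179% of selumetinib 1 and 2 and at most 0.0415% elsewhere. The 9 photoreceptor markers took 0.0906% and 0.172% of carboplatin 1 and 3 and at most 0.0155% elsewhere, where Prph2, Rcvrn and Nrl were among those at 0 in some libraries. The 6 red blood cell genes summed to 12.5 to 87.0 CPM in carboplatin, 240.5 to 7891 CPM in PBS and 630.6 to 1502 CPM in selumetinib, and edgeR called 5 of the 6 lower after carboplatin than in PBS. Slc4a1, the sixth, was at 0 counts in all 3 carboplatin libraries. Leaving out carboplatin 1 or 2 lost all 5 of these calls. Of 7 astrocyte markers 2 were called higher than in PBS, Agt (log2 1.91 ± 0.30, adjusted p = 0.0103) and Aldh1l1 (1.10 ± 0.25, adjusted p = 0.0461). The call of Agt was lost without carboplatin 3 (0.0506) and that of Aldh1l1 held in 2 of the 12 fits with a library left out. Opalin, an oligodendrocyte marker, was called lower than in PBS (-2.36 ± 0.41, adjusted p = 0.0162). Rom1, a photoreceptor marker, was called higher (1.62 ± 0.27, 0.0144). Both calls were lost without carboplatin 1 or 3. Between the drugs, 7 of 8 neuronal markers were called lower after carboplatin, against 8.35% of all genes. Of 9 photoreceptor markers 8 were called higher, against 5.65%. All of these but Rom1 were lost without selumetinib 1 or 2. Y-linked genes had 0 counts in PBS 1, carboplatin 1 and the 3 selumetinib libraries, and 3377 to 5967 in each other library. This signal was absent from selumetinib but present in most PBS and carboplatin libraries. Differences of selumetinib from the other groups cannot be fully told apart from differences of sex, which the labels do not give. The part of these marker transcripts in the differences below was not tested beyond leaving out each library and a fit with a Y-linked covariate. That covariate was the presence or absence of Y-linked counts, which varied within a group only through PBS 1 and carboplatin 1. Exons of 12 of the 30 members overlap an exon on the opposite strand, among them Ddb2, Ercc1, Fanci, Fancd2, Brca2 and Rrm2b. Reads of such partners cannot be told apart unless the counting used strand. In whole tissue, fewer cells of a type and less RNA per cell cannot be told apart. The labels name no animals. The tests therefore rest on the variation among libraries, which may be technical.

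With edgeR, whose calls are meant unless another tool is named, Xpa was the only member to pass the test for carboplatin against PBS. The log2 fold change was positive for 16 of the 30 members in that comparison, and for 7337 of the 18344 genes tested. It was positive for all 5 damage recognition members, with Ddb2 at 0.03 turning negative with PBS 4 to 6 as controls (-0.113), with limma voom (-0.035) and without PBS 1 (-0.066) or carboplatin 1 (-0.0065). Against selumetinib, 7 members passed with edgeR: Xpc, Xpa, Rpa1, Rpa2, Ercc5 and Fanca were higher after carboplatin, and Fancd2 was lower. Selumetinib moved no member past the edgeR test against PBS. DESeq2 and limma voom called more members in each comparison, and also more of all genes. Most differences were small. The absolute log2 fold change was under 0.5 for 22 of 30 members when carboplatin was compared with PBS. It was so for 25 when selumetinib was, and for 19 when the drugs were compared with each other. Its median in these comparisons was 0.30, 0.19 and 0.34 for the members and 0.31, 0.41 and 0.49 for all genes.

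For carboplatin against PBS, the 1 of 30 members called at an adjusted p under 0.05 compares with 2.09% of all genes called and 1.57% called higher. At an unadjusted p under 0.05 there were 6 higher and 2 lower members, against 16.5% of all genes. All carboplatin libraries lay above all PBS libraries for 4 members (Xpc, Ercc5, Xpa and Rpa1), against 6.97% of genes, and below them for 2 (Fancc and Brca1), against 5.23%. DESeq2 called Xpa, Xpc, Ercc5 and Rpa1 higher and Fancc and Brca1 lower, and limma voom called 9 members higher and 4 lower. Over all genes, DESeq2 called 1574 of 17518 with an adjusted p, and limma voom 5470 of 18344. The median log2 fold change of the members was 0.03, and that of all genes was -0.11. For selumetinib against PBS, edgeR called 0 members and 0 genes (0.00%). At an unadjusted p under 0.05 it gave 2 members higher (Fancd2 and Brca2) and 3 lower (Xpc, Rpa1 and Rpa2), against 24.0% of genes. DESeq2 called 2 members higher, again Fancd2 and Brca2, and 1 lower, Xpc, and limma voom 4 and 9. Of all genes, DESeq2 called 2403 of 17518 and limma voom 10165 of 18344. Every selumetinib library lay above PBS for Fancd2, against 3.23% of genes, and below PBS for Xpc and Rpa2, against 2.70%. The median was -0.04 for the members and -0.09 for all genes.

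For carboplatin against selumetinib, 7 of 30 members were called, against 14.0% of all genes. The 6 higher members compare with 5.65% of genes and the 1 lower member with 8.35%. At an unadjusted p under 0.05 there were 6 members in each direction, against 31.5% of genes. The groups were apart with carboplatin above for 6 members, against 20.9% of genes, and with carboplatin below for 8 (Ddb2, Fancc, Fancd2, Brca1, Brca2, Rad51c, Rev3l and Chek1), against 20.8%. DESeq2 called the same 7 members and also Chek1, Rad51c and Rev3l lower, and limma voom called 9 higher and 6 lower. Of all genes, DESeq2 called 4715 of 17518 and limma voom 10788 of 18344. The median log2 fold change was 0.10 for the members and -0.01 for all genes.

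**Figure D1:**
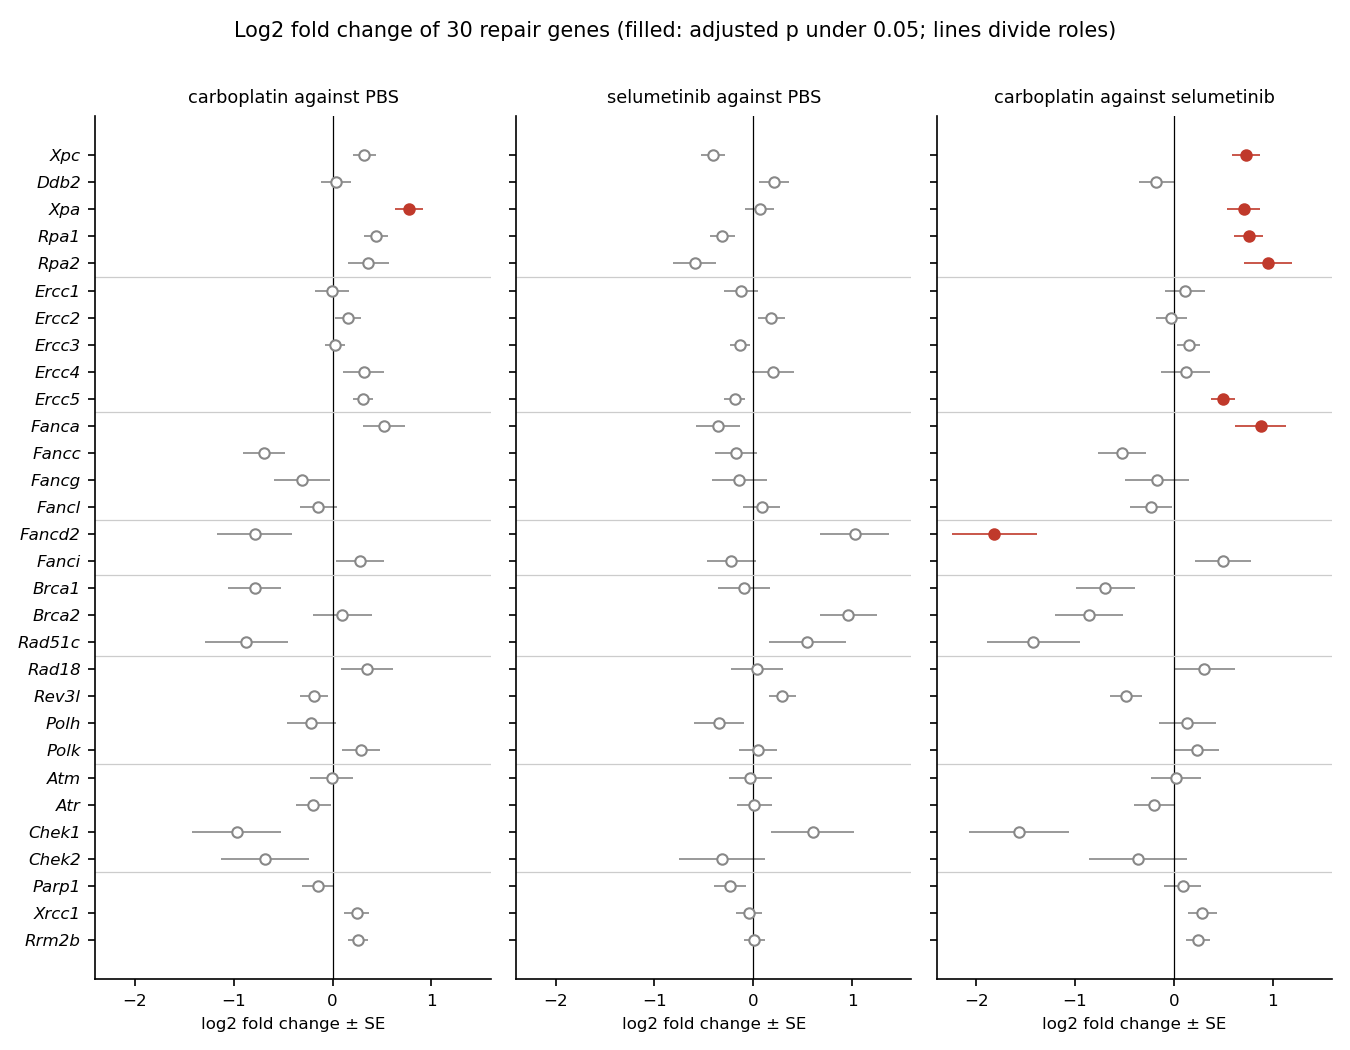
Log2 fold change of each of the 30 members in the 3 comparisons, with the standard error derived from the edgeR test as a bar and called members marked. Xpa is the called member of carboplatin against PBS, and the 7 called members of carboplatin against selumetinib run from -1.82 (Fancd2) to 0.95 (Rpa2).

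Xpa encodes the protein that verifies damage and gathers the other excision factors (ENSMUSG00000028329, GRCm38 chromosome 4, 46155347 to 46196311). Its level in PBS was 10.5 CPM at the lowest, 12.4 at the median and 14.3 at the highest. The carboplatin libraries stood at 23.1, 17.7 and 23.1 CPM and the selumetinib libraries at 13.7, 11.9 and 13.6 CPM. All carboplatin libraries were above all others, and selumetinib lay within the PBS range. Xpa was 1.70-fold higher than in PBS (log2 fold change 0.77 ± 0.14 SE, n = 3 against 6, edgeR quasi-likelihood test, adjusted p = 0.0214). It was 1.63-fold higher than in selumetinib (0.71 ± 0.17, adjusted p = 0.0253). Against PBS the call held in 8 of the 12 fits that each left out a library. It was lost without PBS 4 (adjusted p = 0.0644), PBS 6 (0.0573), carboplatin 1 (0.118) or carboplatin 3 (0.129), with log2 fold changes from 0.71 to 0.90 over the 12 fits, and with PBS 1 to 3 as the only controls (0.274). The exons of Xpa share 77 bases with Ncbp1 on the opposite strand, and the strand setting of the counting is not given in the sources used here.

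Xpc encodes the sensor that finds distorted helices in the whole genome and is a known p53 target (chromosome 6, 91489305 to 91515888). PBS libraries ran from 20.7 through a median of 23.8 to 25.1 CPM. Carboplatin libraries held 31.6, 27.0 and 29.1 CPM and selumetinib libraries 15.7, 17.1 and 20.1 CPM. The 3 groups did not overlap: carboplatin lay above PBS and selumetinib below it. The difference between the drugs was 1.66-fold (log2 0.73 ± 0.14, adjusted p = 0.0139). Against PBS the calls depended on the tool. The edgeR log2 fold change was 0.32 ± 0.12 for carboplatin (adjusted p = 0.204) and -0.41 ± 0.12 for selumetinib (adjusted p = 0.104, and 0.0285 without selumetinib 3). DESeq2 called both drugs, with adjusted p = 0.0404 for carboplatin and 0.0113 for selumetinib, and so did limma voom, with 0.00701 and 0.000325.

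RPA coats single-stranded DNA in excision repair, replication and recombination. Its large subunit gene Rpa1 (chromosome 11, 75298166 to 75348324) ran from 80.6 through 94.1 to 104.2 CPM in PBS, and stood at 124.0, 131.8 and 124.7 CPM in carboplatin and 69.9, 66.4 and 89.1 CPM in selumetinib. Every carboplatin library was above every other library, and selumetinib 3 lay within the PBS range while selumetinib 1 and 2 lay below it. Rpa1 was 1.69-fold higher in carboplatin than in selumetinib (log2 0.76 ± 0.14, adjusted p = 0.0137). Against PBS the carboplatin value was 0.44 ± 0.12 (adjusted p = 0.0933), and it was called without PBS 1 (0.0268) or selumetinib 3 (0.0333) and by DESeq2 (0.00434).

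Rpa2, the middle subunit (chromosome 4, 132768332 to 132778752), had 14.3, 15.9 and 27.1 CPM as the lowest, median and highest PBS values. Carboplatin libraries had 21.7, 24.1 and 23.9 CPM and selumetinib libraries 11.2, 11.01 and 13.8 CPM. Selumetinib lay below all PBS libraries, and carboplatin lay above 5 of the 6. Rpa2 was 1.94-fold higher in carboplatin than in selumetinib (log2 0.95 ± 0.24, adjusted p = 0.0301), and selumetinib against PBS gave -0.59 ± 0.21 (adjusted p = 0.141). The controls were split for this gene: PBS 1 to 3 held 27.1, 16.5 and 20.6 CPM and PBS 4 to 6 held 14.3, 15.05 and 15.2 CPM. Carboplatin against PBS was called for Rpa2 with PBS 4 to 6 as the only controls and without PBS 1.

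Ddb2, which binds ultraviolet lesions and is a p53 target in human cells, did not follow the other recognition genes. Whether it answers to p53 in mice was not tested. Its PBS values were 16.1, 24.3 and 26.1 CPM at the lowest, median and highest, and its carboplatin values 24.4, 21.2 and 23.9 CPM. Selumetinib libraries stood at 26.9, 26.7 and 25.1 CPM. Carboplatin lay within the PBS range and below all selumetinib libraries. The log2 fold change was 0.03 ± 0.15 against PBS (adjusted p = 0.938) and -0.18 ± 0.18 against selumetinib (adjusted p = 0.529).

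**Figure D2:**
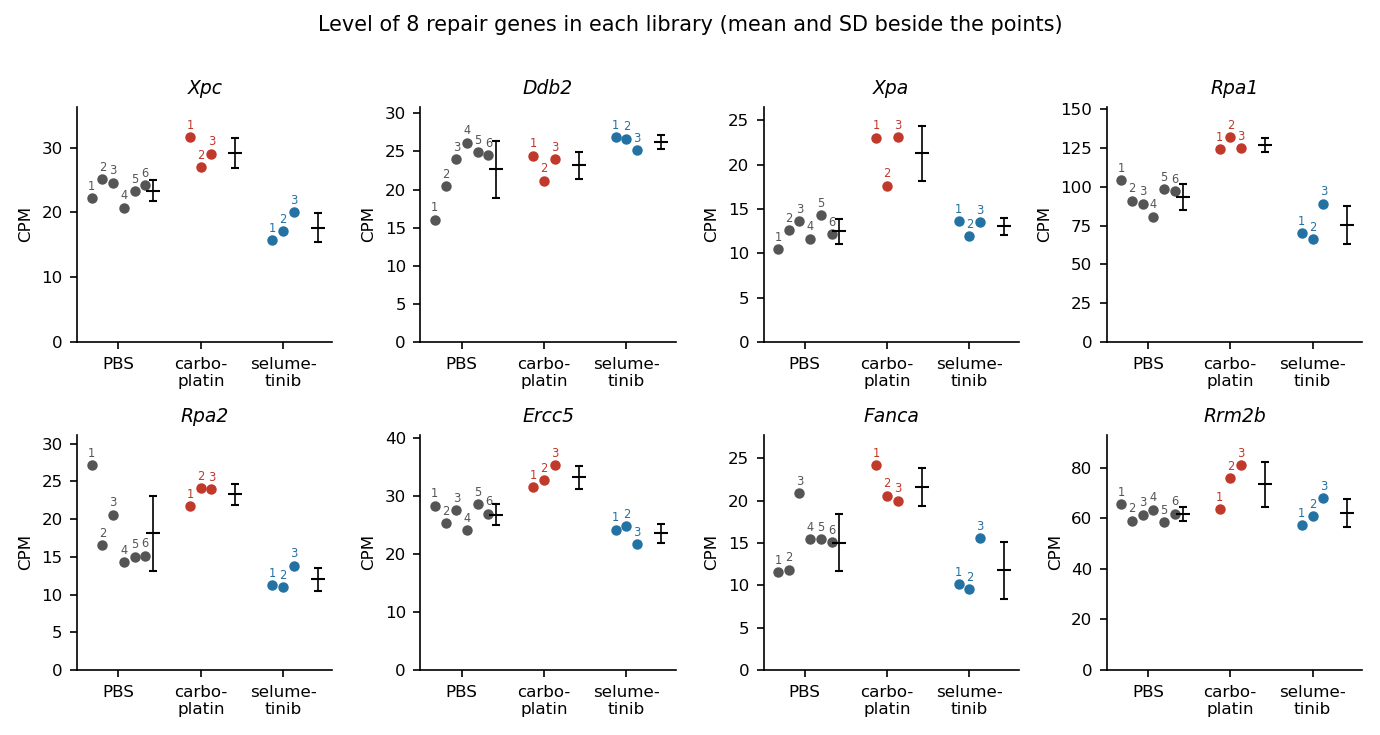
CPM in each of the 12 libraries for 6 excision repair members, Fanca and Rrm2b, with the mean and SD of each group beside the points. Xpa, Xpc, Rpa1 and Ercc5 are above every PBS and selumetinib library in all 3 carboplatin libraries.

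Among the genes that unwind and cut, Ercc5 was the 1 of 5 that passed with edgeR in any comparison, and it did so between the drugs. Ercc5 (XPG) cuts on the 3′ side of the lesion (chromosome 1, 44147744 to 44181260). PBS libraries ran from 24.1 through 27.3 to 28.6 CPM, carboplatin libraries stood at 31.6, 32.7 and 35.3 CPM and selumetinib libraries at 24.2, 24.8 and 21.7 CPM. All carboplatin libraries were above all others. The drugs differed 1.41-fold (log2 0.49 ± 0.12, adjusted p = 0.0261), and carboplatin against PBS gave 0.31 ± 0.10 (adjusted p = 0.162), which DESeq2 called (0.0194).

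The other nuclease, ERCC1-ERCC4, cuts on the 5′ side and also unhooks crosslinks. Ercc1 ran from 11.7 through 13.4 to 19.7 CPM in PBS and was 15.5, 13.2 and 13.5 CPM in carboplatin and 13.8, 13.0 and 12.3 CPM in selumetinib. Ercc4 ran from 13.6 through 22.5 to 24.6 CPM in PBS and was 28.8, 20.0 and 30.8 CPM in carboplatin and 25.4, 28.8 and 19.1 CPM in selumetinib. The groups overlapped for both genes. Carboplatin against PBS gave a log2 fold change of -0.01 ± 0.17 for Ercc1 (adjusted p = 0.987) and 0.32 ± 0.21 for Ercc4 (adjusted p = 0.490). Limma voom called Ercc4 higher (0.0332). The helicase genes Ercc2 and Ercc3 had groups that overlapped, with means of 28.2 ± 2.94 and 29.9 ± 1.49 CPM (SD, n = 6) in PBS and 31.4 ± 2.45 and 30.3 ± 2.15 CPM (SD, n = 3) in carboplatin.

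The Fanconi anaemia genes did not move as a block. FANCA, FANCC, FANCG and FANCL belong to the core complex, in which FANCL is the ubiquitin ligase that marks the FANCI-FANCD2 clamp. Fanca (chromosome 8, 123268300 to 123318576) ran from 11.5 through 15.3 to 20.9 CPM in PBS. It stood at 24.2, 20.6 and 20.0 CPM in carboplatin and at 10.1, 9.55 and 15.6 CPM in selumetinib. Carboplatin lay above all selumetinib libraries, and 2 of its libraries fell below the highest PBS library. Fanca was 1.84-fold higher in carboplatin than in selumetinib (log2 0.88 ± 0.25, adjusted p = 0.0440), and against PBS the value was 0.52 ± 0.22 (adjusted p = 0.258). Its call held in 3 of 12 fits with a library left out, and was lost with the Y-linked covariate (adjusted p = 0.0707). Leaving out any carboplatin library, selumetinib 1 or 2, or PBS 2, 4, 5 or 6 gave adjusted p values from 0.0536 to 0.176. Its exons share 920 bases with Zfp276 on the opposite strand.

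Fancc lay on the other side. PBS libraries ran from 11.1 through 13.3 to 18.6 CPM, carboplatin libraries were at 7.50, 9.09 and 9.88 CPM and selumetinib libraries at 11.1, 13.0 and 13.9 CPM. All carboplatin libraries were below all others, but with edgeR the difference did not pass against PBS (log2 -0.70 ± 0.22, adjusted p = 0.129) or selumetinib (-0.52 ± 0.24, adjusted p = 0.166). Without PBS 1 it was called lower than PBS (-0.76, adjusted p = 0.0406), as it was by DESeq2 (0.0261). Exons of Fancc share 1558 bases with genes on the opposite strand. Fancg and Fancl overlapped between groups, with 10.1 ± 3.03 and 7.71 ± 1.45 CPM in PBS (SD, n = 6) and 8.11 ± 0.404 and 6.97 ± 0.592 CPM in carboplatin (SD, n = 3).

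Fancd2, the clamp subunit whose ubiquitination starts crosslink repair, was the lowest member per length and the 1 member edgeR called lower (chromosome 6, 113531682 to 113597017). PBS libraries ran from 0.996 through 1.51 to 1.80 CPM. Carboplatin libraries stood at 0.514, 1.10 and 0.968 CPM and selumetinib libraries at 2.34, 4.72 and 2.05 CPM. Selumetinib was above all other libraries, and carboplatin overlapped PBS through carboplatin 2. The level in carboplatin was 0.284 of that in selumetinib (log2 -1.82 ± 0.43, adjusted p = 0.0246). Against PBS, carboplatin gave -0.79 ± 0.38 (adjusted p = 0.326) and selumetinib 1.03 ± 0.35 (adjusted p = 0.128). The gene had only 17 to 133 counts per library, and selumetinib 2, one of the libraries with neuronal markers, was its highest. Without that library the drugs differed by -1.38 on the log2 scale (adjusted p = 0.106).

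Fanci, its partner, ran from 11.5 through 15.02 to 16.4 CPM in PBS, with 21.01, 11.5 and 19.2 CPM in carboplatin and 10.6, 8.77 and 17.2 CPM in selumetinib. The groups overlapped, and carboplatin 2 was below every PBS library while carboplatin 1 and 3 were above. The log2 fold change against PBS was 0.28 ± 0.24 (adjusted p = 0.614).

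The recombination genes were rare transcripts with lower values after carboplatin than after selumetinib, and their calls depended on the tool. With all libraries edgeR called none of them. Against PBS, DESeq2 called Brca1 lower (adjusted p = 0.0416). Between the drugs, DESeq2 called Rad51c lower (0.0143), and limma voom called Brca1, Brca2 and Rad51c lower (0.0205, 0.000387 and 0.00269). BRCA1 acts early, in the choice of recombination over end joining, and BRCA2 and RAD51C act later, on the resected DNA. Brca1 ran from 1.84 through 2.36 to 3.12 CPM in PBS and stood at 1.39, 1.39 and 1.44 CPM in carboplatin and 2.62, 2.06 and 2.14 CPM in selumetinib. Every carboplatin library was below every other library. The log2 fold change was -0.79 ± 0.27 against PBS (adjusted p = 0.173) and -0.69 ± 0.30 against selumetinib (adjusted p = 0.142).

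Brca2 ran from 2.93 through 4.40 to 6.83 CPM in PBS, with 5.14, 5.91 and 4.61 CPM in carboplatin and 11.99, 9.80 and 6.63 CPM in selumetinib. The high values were those of selumetinib 1 and 2, the libraries with neuronal markers, and selumetinib 3 lay within the PBS range. Carboplatin against PBS gave 0.10 ± 0.30 (adjusted p = 0.893) and carboplatin against selumetinib -0.86 ± 0.34 (adjusted p = 0.114). Without PBS 1 the latter was called (-0.88, adjusted p = 0.0405). Rad51c ran from 1.16 through 1.53 to 2.51 CPM in PBS, with 0.635, 0.489 and 1.54 CPM in carboplatin and 2.97, 2.34 and 1.84 CPM in selumetinib. Carboplatin was below all selumetinib libraries and overlapped PBS through carboplatin 3. The drugs differed by -1.42 ± 0.47 on the log2 scale (adjusted p = 0.0663), which was called without PBS 1 (0.0296) or selumetinib 3 (0.0426).

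**Figure D3:**
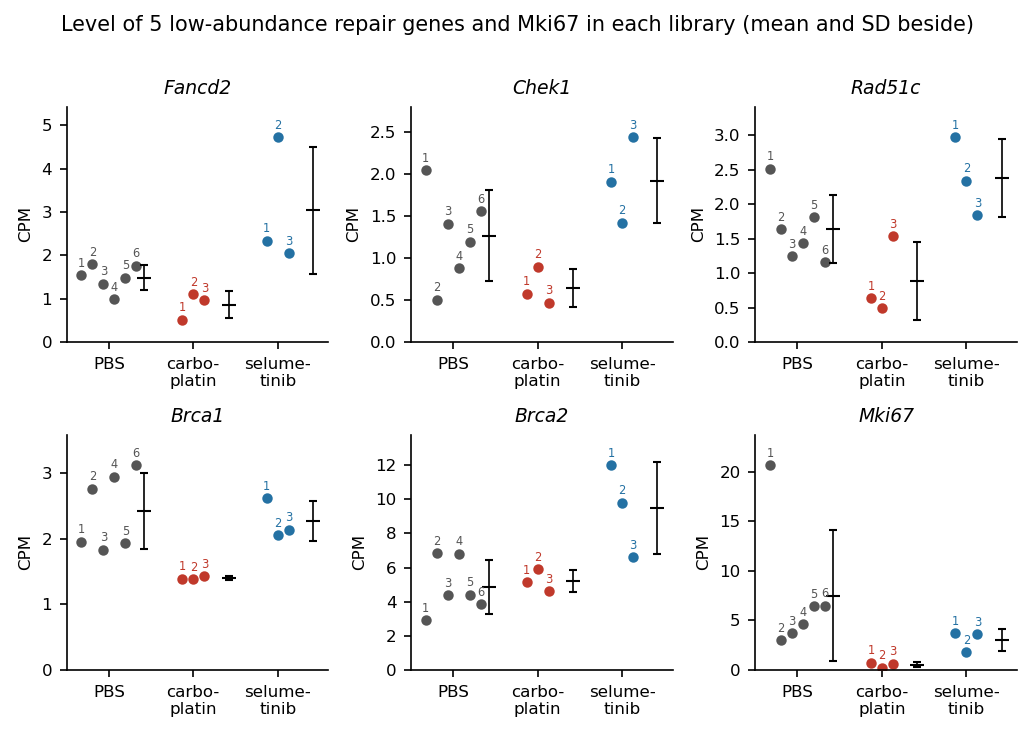
CPM in each library for Fancd2, Chek1, Rad51c, Brca1, Brca2 and, for comparison, Mki67, with mean and SD beside. The 3 carboplatin libraries of Brca1 and Mki67 lie below all PBS libraries, and selumetinib 1 and 2 are the highest points of Brca2.

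Mki67, a marker of dividing cells, was below PBS in every carboplatin library (0.756, 0.245 and 0.634 CPM, against 3.02 to 20.7 CPM in PBS). Its log2 fold change was -3.76 ± 0.74 (adjusted p = 0.0278). Among the carboplatin libraries, carboplatin 2 held the lowest Mki67 and Rad51c but the highest Fancd2 and Chek1. Of 16 genes of dividing cells, 4 were called lower than in PBS (Cenpf, Mki67, Kif11 and Top2a), against 95 of 18344 genes tested. The replication helicase gene Mcm7 was called higher (0.62 ± 0.11, adjusted p = 0.0210), against 1.57% of genes. Leaving out any 1 carboplatin library lost these 5 calls (adjusted p up to 0.226), those of Kif11 and Top2a held in only 3 and 2 of the 12 fits, and the call of Mki67 was also lost without PBS 5 or PBS 6. Top2a was named after its value was seen. Between the drugs Mki67 was lower after carboplatin (-2.46 ± 0.74, adjusted p = 0.0497), a call that held in 2 of the 12 fits. For selumetinib against PBS the 16 genes had a median log2 fold change of -0.61 and none was called. Fancd2 was at 1.03 there, Chek1 at 0.60, Rad51c at 0.55 and Brca1 at -0.10. The part of dividing cells in the low values of Brca1, Fancd2, Rad51c and Chek1 was not tested.

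Of the translesion members, Rev3l alone had groups apart. It encodes the catalytic subunit of polymerase zeta, which extends from mispaired ends. PBS libraries ran from 34.1 through 46.9 to 49.2 CPM, carboplatin libraries were at 39.0, 37.8 and 41.1 CPM and selumetinib libraries at 63.7, 55.6 and 45.5 CPM. Carboplatin lay below all selumetinib libraries and within the PBS range, and selumetinib 1 and 2 were again the highest. The drugs differed by -0.48 ± 0.16 on the log2 scale (adjusted p = 0.0691), called without PBS 1 (0.0125) or selumetinib 3 (0.0248) and by DESeq2 (0.0236).

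Polh, the polymerase that copies past bulky links, is a p53 target in other settings, as is Polk. Polh ran from 6.37 through 7.85 to 12.2 CPM in PBS and stood at 7.13, 4.89 and 9.42 CPM in carboplatin and 6.76, 6.07 and 6.71 CPM in selumetinib. Polk ran from 10.3 through 13.1 to 15.4 CPM in PBS, with 16.9, 12.8 and 16.8 CPM in carboplatin and 9.84, 13.0 and 16.7 CPM in selumetinib. Groups overlapped for both, and carboplatin against PBS gave -0.21 ± 0.25 for Polh (adjusted p = 0.705) and 0.29 ± 0.19 for Polk (adjusted p = 0.494). Rad18, the ubiquitin ligase that recruits these polymerases, had 4.44 ± 1.22 CPM in PBS (SD, n = 6) and 5.65 ± 0.302 CPM in carboplatin (SD, n = 3), with groups that overlapped.

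With all libraries edgeR called no checkpoint kinase. Between the drugs, DESeq2 (adjusted p = 0.0118) and limma voom (0.00245) called Chek1 lower after carboplatin. Limma voom also called Atm (0.0253) and Chek2 (0.00875) lower after selumetinib than in PBS. ATR with CHEK1 answers stalled forks, and ATM with CHEK2 answers double strand breaks. Chek1 ran from 0.503 through 1.30 to 2.05 CPM in PBS and stood at 0.574, 0.897 and 0.467 CPM in carboplatin and 1.91, 1.42 and 2.44 CPM in selumetinib. Carboplatin was below all selumetinib libraries and overlapped PBS. The drugs differed by -1.57 ± 0.51 on the log2 scale (adjusted p = 0.0612), on 12 to 57 counts per library, and the difference was called without PBS 1 (0.0261) or PBS 2 (0.0407). Atm, Atr and Chek2 overlapped between groups: Atm had means of 20.6 ± 4.23, 20.4 ± 1.38 and 20.2 ± 5.36 CPM in PBS, carboplatin and selumetinib, and Atr of 19.4 ± 2.65, 17.0 ± 1.39 and 19.5 ± 4.92 CPM. Chek2 had means of 4.70 ± 1.38, 2.92 ± 0.316 and 3.77 ± 2.98 CPM (SD, n = 6, 3 and 3 throughout).

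Rrm2b, a p53-induced subunit of ribonucleotide reductase that supplies nucleotides for repair, ran from 58.4 through 61.6 to 65.7 CPM in PBS. It stood at 63.7, 75.9 and 81.0 CPM in carboplatin and 57.2, 60.9 and 68.1 CPM in selumetinib. Carboplatin 2 and 3 lay above all PBS libraries and carboplatin 1 within them (log2 fold change 0.26 ± 0.10, adjusted p = 0.253). Parp1, a sensor of strand breaks, and Xrcc1, the scaffold of single strand break repair, overlapped between groups. Their PBS means were 48.8 ± 10.3 and 22.3 ± 2.24 CPM (SD, n = 6), and their carboplatin means 44.2 ± 1.35 and 26.3 ± 2.73 CPM (SD, n = 3).

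Outside the 30 members, 5 of 19 p53 targets were called higher after carboplatin than in PBS, against 1.57% of all genes. They were led by Cdkn1a, the cell cycle inhibitor p21. Cdkn1a held 590.2, 281.6 and 435.6 CPM in carboplatin against 14.1 to 90.8 CPM in PBS (log2 3.51 ± 0.49, adjusted p = 0.00536). The others were Bbc3 (1.45 ± 0.20), Sesn1 (1.03 ± 0.18), Trp53inp1 (1.24 ± 0.22) and Sesn2 (1.13 ± 0.23). The members listed as p53 targets (Xpc, Polk, Rrm2b, Polh and, from human cells, Ddb2) were not called by edgeR in the same comparison. DESeq2 called Xpc higher there, and limma voom called Xpc and Rrm2b (0.0224). The calls of Cdkn1a and Bbc3 held in all 12 fits with a library left out, those of Sesn1 and Trp53inp1 were lost without carboplatin 1 or 3 (adjusted p from 0.0895 to 0.0991), and that of Sesn2 held in 4. Sesn2 was named after its value was seen. Between the drugs 8 of the 19 were called higher after carboplatin, against 5.65% of all genes. In that comparison the calls of Cdkn1a, Bbc3 and Sesn1 held in all 12 fits. Each of the others was lost without carboplatin 1, carboplatin 3, selumetinib 1 or selumetinib 2, and the least stable held in only 2 fits. The list of p53 targets was chosen with results of these data known, and its median log2 fold change against PBS was 0.50.

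Of 15 further Fanconi and crosslink genes, 1 was called higher than in PBS, against 1.57% of all genes. Dclre1b, which encodes the Apollo nuclease of telomere ends and crosslink repair, stood at 32.9, 19.8 and 35.4 CPM in carboplatin and 8.24 to 13.2 CPM in PBS. All carboplatin libraries were above all PBS libraries (log2 1.41 ± 0.21, adjusted p = 0.00641). With edgeR no gene was called for carboplatin against PBS in the lists of other excision repair (21 genes), recombination (16 tested), mismatch repair (7), base excision (18), end joining (12), translesion (11), checkpoint (16) or nucleotide supply genes (8). At an unadjusted p under 0.05 there were 15 of these 109 genes, DESeq2 called 11 and limma voom 31. Of all genes, those 2 tools called 1574 of 17518 and 5470 of 18344. Between the drugs, Pole (1.40 ± 0.37), Dclre1b (1.69 ± 0.25), Usp1 (0.59 ± 0.15), Rad50 (0.56 ± 0.17) and Nthl1 (0.84 ± 0.18) were higher after carboplatin. The Dclre1b call held in 12 of 12 fits with a library left out, and against PBS in 11, lost without carboplatin 3 (0.0524). Neil1 (-0.76 ± 0.18), Trp53bp1 (-1.55 ± 0.30), Lig4 (-0.66 ± 0.16), Primpol (-0.78 ± 0.22) and Dck (-1.17 ± 0.23) were lower, as log2 fold changes with SE. Trp53bp1 held 164.2, 149.8 and 71.3 CPM in selumetinib 1, 2 and 3, and Dck 19.1, 16.8 and 10.2 CPM, so their high values also lay in the 2 libraries with neuronal markers. Apart from Dclre1b, each of these calls was lost when selumetinib 1, selumetinib 2 or any 1 carboplatin library was left out, with adjusted p values from 0.0514 (Dck) to 0.179 (Rad50). Those of Rad50 and Primpol held in only 2 of the 12 fits. Selumetinib against PBS gave 0 genes called by edgeR in each of these 8 lists. At an unadjusted p under 0.05 there were 11, and DESeq2 called 7 and limma voom 41. Of all genes, DESeq2 called 2403 of 17518 and limma voom 10165 of 18344 there.

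The levels of the members per length were spread widely in PBS. Median CPM per kb of exon was highest for Rpa1 (16.9), Ercc3 (10.5), Ddb2 (8.87) and Parp1 (8.52), and lowest for Rad51c (0.350), Brca2 (0.323), Chek1 (0.281), Brca1 (0.277) and Fancd2 (0.190). The median over members was 2.74, and that over 18192 genes with a length was 3.70. In order between these ends came Ercc2, Rrm2b, Xpa, Rpa2, Ercc5, Xpc, Ercc1, Xrcc1, Rev3l, Ercc4, Fancg, Fanci, Polk, Fancl, Atm, Fanca, Fancc, Chek2, Polh, Atr and Rad18. Of the 29 neighbouring pairs, 4 had ranges apart over the 6 PBS libraries: Rpa1 over Ercc3, Ercc3 over Ddb2, Parp1 over Ercc2, and Polh over Atr. The ranges of the other neighbours overlapped, and whether those genes differ within libraries was not tested.

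**Figure D4:**
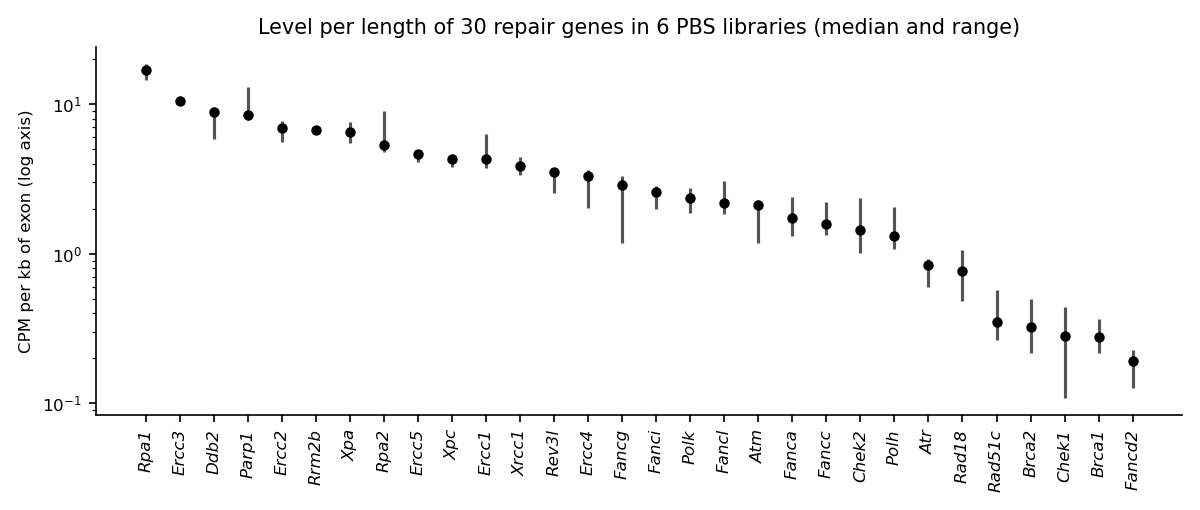
Median and range over the 6 PBS libraries of CPM per kb of exon (log axis) for the 30 members, ordered by the median. Excision repair genes fill most of the upper part, and Fancd2, Brca1, Chek1, Brca2 and Rad51c form the lower end at 0.190 to 0.350.

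Counted by library, carboplatin 1, 2 and 3 had 10, 6 and 9 members above all 6 PBS libraries and 5 members each below them. Over all genes tested, 14.2%, 16.5% and 15.6% lay above and 13.3%, 18.5% and 13.9% below in the same libraries. Selumetinib 1, 2 and 3 had 6, 6 and 8 members above and 10, 8 and 4 below, against 24.8%, 25.8% and 8.76% of genes above and 23.6%, 26.3% and 7.99% below. The members of selumetinib 3 that were above (Fancd2, Fanci, Atm, Atr, Chek1, Chek2, Polk and Rrm2b) shared only Fancd2 with those of selumetinib 1 and 2, which had Ddb2, Ercc4, Fancd2, Brca2 and Rev3l in common. The calls between the drugs depended on these libraries. Without selumetinib 1 or without selumetinib 2, 0 members were called in that comparison, with adjusted p values for Xpc of 0.0776 and 0.0734 and for Rpa1 of 0.0715 and 0.0710. The log2 fold changes stayed at 0.62 to 0.81 for Xpc, 0.64 to 0.88 for Rpa1, 0.42 to 0.53 for Ercc5, 0.61 to 0.84 for Xpa and 0.86 to 1.05 for Rpa2 over the 12 fits. Without carboplatin 1 or carboplatin 3 no member was called either, with Rpa1 at 0.0514 and 0.0547, and without carboplatin 2 Xpc, Xpa and Rpa1 were.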

How the data were processed

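The 12 optic nerve libraries were grouped by the treatment label. Raw counts per gene were deposited by the authors in 1 table. The submitters' processing notes name STAR, HTSeq, Trimmomatic, FastQC and DESeq2, and build mm10. Versions, annotation, strand setting and filters are not given in the sources used here. Positions, lengths and symbols came from GENCODE M21 (GRCm38), which holds 34490 of the 35275 gene IDs.

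Genes were kept with filterByExpr defaults (minimum count 10, minimum total 15) and scaled with TMM factors. The test was the quasi-likelihood test of edgeR 4.0.16 under R 4.3.3, with a robust fit of the 3 groups together. P-values were Benjamini-Hochberg adjusted over 18344 genes, with a threshold of 0.05, and the common dispersion was 0.272. The SE beside a log2 fold change was derived from the test: the size of the change over the root of the F statistic. The total counts limit the precision of members under 3 CPM most. No 2 libraries were duplicates, with a highest correlation of 0.981 (log2 CPM, prior count 2).

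The members and lists were chosen with earlier results of these data known. Of 242 list symbols 238 matched. A member was given with its values in every library where it was called or where groups were apart. So was a member listed as a p53 target or as central to crosslink repair. Called genes of the pathway lists were named, at most 4 per list and comparison by smallest p, with Cdkn1a and Mki67. Sesn2 and Top2a fall outside this rule and were named after their values were seen. Alternatives were DESeq2 1.42.0, limma 3.58.1 voom with quality weights, RLE factors, no filter and at least 1 CPM in 3 libraries. Others were only the libraries compared and PBS 1 to 3 or PBS 4 to 6 as controls. The last were the presence or absence of Y-linked counts as a covariate, the replicate block and each library left out.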

Additional observations from a re-analysis of the deposited data

Results flagged for a closer look

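In PBS, 5 of the 30 members had a library far from the other 5, by Dixon's gap over range with a critical value of 0.625, and in each it was PBS 1. Chance flags about 1 in 20 groups, but these groups share the same libraries, so their flags are not independent. PBS 1 held 19.7 CPM of Ercc1 (11.7 to 14.3 in the others) and 69.1 CPM of Parp1 (41.8 to 48.9). It held 13.6 CPM of Ercc4 (21.5 to 24.6), 12.2 CPM of Atm (20.9 to 23.5) and 14.2 CPM of Atr (19.7 to 21.6). PBS 1 was the highest or lowest PBS library for 23 of the 30 members, and it was also the library with skeletal muscle transcripts. The part of these in the values was not tested.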

How the results depend on the processing

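Carboplatin against PBS gave 383 called genes. There were 1574 with DESeq2, 5470 with limma voom, 7 with PBS 1 to 3 and 2202 with PBS 4 to 6 as controls, 640 with the Y-linked covariate, and 73 to 1941 with a library left out. Members called higher were 4, 9, 0 and 2 in the first 4 of these, and 0 to 3 with a library left out. Members called lower were 2 with DESeq2, 4 with limma voom and 0 to 1 with a library left out. Selumetinib against PBS gave 2403 genes with DESeq2, 10165 with limma voom, 3 with PBS 1 to 3, 2605 with the Y-linked covariate and 0 to 4089 with a library left out. Members called higher were 2, 4 and 0 to 2 (DESeq2, limma voom, leave-one-out), and lower 1, 9 and 0 to 3, with 1 under the Y-linked covariate. Carboplatin against selumetinib gave 4715 genes with DESeq2, 10788 with limma voom, 4290 with the Y-linked covariate and 134 to 5974 with a library left out, against 2568. Members called higher were 0 to 7 with a library left out. Members called lower were 4 with DESeq2, 6 with limma voom, 0 with only the libraries compared, 2 with the Y-linked covariate and 0 to 5 with a library left out. PBS 1 to 3 are listed before the carboplatin libraries and PBS 4 to 6 before the selumetinib libraries. Whether these are separate sets was not tested. The cause of the shifts in called genes and members was not tested. Among the fits with a library left out, the highest counts came without PBS 1 or selumetinib 3.

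With the replicate block the genes called were 5, 2 and 50 in the 3 comparisons, and 0 members were called in any. The replicate numbers were not taken as pairs because the labels state no pairing. The 9 same-number pairs correlated at -0.125 to 0.379 (median 0.0972) and other pairs at -0.474 to 0.388 (median -0.0426). Of 9 libraries, 5 correlated best with their own number. Whether the numbers mark pairs cannot be told from these values.

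Values near 0 for carboplatin against PBS changed sign. Brca2 was -0.016 with limma voom and -0.028 to 0.233 with a library left out. Ddb2 was -0.035 with limma voom, -0.113 with PBS 4 to 6 and -0.066 to 0.102. Ercc1 was 0.108 with limma voom, 0.0045 without a filter, 0.094 with PBS 4 to 6 and -0.086 to 0.091. Polh was 0.110 with limma voom and -0.450 to 0.0073. Of all alternatives for 33 named member values, 588 kept direction and side of the threshold, 41 gained a call, 53 lost one and 16 changed sign. Members under 3 CPM rest on few counts.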
